A study of Mus musculus with 12 samples.

Results

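Cellular zinc is kept in balance by proteins that buffer it, move it and sense it. Metallothioneins are small cysteine-rich proteins that bind zinc, copper and cadmium. Transporters of the Slc30 family carry metal out of the cytosol, to the outside or into organelles, and those of the Slc39 family carry it into the cytosol. In the small intestine, absorptive enterocytes take up dietary zinc across the brush border and pass it on to the blood. The zinc finger factor Mtf1 senses zinc and binds short metal response elements in front of its target genes, among them both metallothionein genes and the exporter Slc30a1.

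The 8 genes described here are the metallothioneins Mt1 and Mt2, the factor Mtf1, the exporters Slc30a1 and Slc30a10 and the importers Slc39a4, Slc39a5 and Slc39a14. They were taken by name from a table of 55421 genes, and the list was chosen by TPM differences between these groups that were already known. Their levels and changes are therefore a description, with no test. Bulk RNA-seq was made from intestinal epithelial cells of mouse jejunum. Both genotypes, Ctrl and Fzd5KO (a knockout of the gene for Frizzled 5, a Wnt receptor), were sampled at day 1 and at day 3. The 4 groups, Ctrl day 1, Fzd5KO day 1, Ctrl day 3 and Fzd5KO day 3, held 3 libraries each. Strain, age, any agent, a Cre driver and any further allele are not stated in the labels, nor is the event that starts the count of days.

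Values are TPM, transcript abundances scaled for transcript length and to one total per library, so that levels can be compared between genes while sequencing depth is unknown. Nothing in the labels ties replicates to separate animals, so a p-value reflects the spread among libraries alone, and that spread may be technical. All 8 genes lay above 1 TPM in every library, with 5.88 TPM as the lowest value, and so passed the filter (at least 1 TPM in at least 3 libraries) that 14510 genes passed. Changes are differences of log2(TPM + 1) ± SE, and a gene is called when its adjusted p over all 14510 genes in limma lies under 0.05. Fzd5 itself, the check of the labels, was at 46.6 ± 2.94 and 32.7 ± 0.694 TPM in Ctrl and Fzd5KO at day 1 and at 64.8 ± 3.95 and 38.6 ± 0.969 TPM at day 3 (mean ± SD, n = 3 libraries). The knockout was lower each day (limma adjusted p = 0.000151 and 4.42e-07), and the sources used here do not give the removed part of the gene. The median gene stood at −0.14 in the knockout on each day, and quantile or median-of-ratios scaling moved it to between −0.038 and 0.00033. A change of that size depends on the scale. Ctrl day 1 replicate 1 had more genes above 0 (24467) than the other 11 libraries, which had 21506 to 22613.

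Mt2 (chromosome 8, 94172664 to 94173568, plus strand, mm10) and Mt1 (94179082 to 94180327, plus strand) lie one after the other, with 5513 bases between them. The other members stand apart from this locus. Slc30a1 (191906767 to 191913247, plus strand) and Slc30a10 (185454848 to 185468762, plus strand) are on chromosome 1 and Mtf1 (124802104 to 124849800, plus strand) is on chromosome 4. On the minus strand are Slc39a5 (chromosome 10, 128395931 to 128401229), Slc39a14 (chromosome 14, 70303469 to 70351425) and Slc39a4 (chromosome 15, 76612383 to 76617384).

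The promoters of Mt1, Mt2 and Slc30a1 are shown because these 3 genes are known targets of Mtf1 yet had different profiles in these libraries. Each runs from 250 bases before to 50 bases after the RefSeq start (GRCm38.p6, the assembly also called mm10), read along the gene. Capitals mark matches to the core of the metal response element, searched as TGCACNC and TGCGCNC on both strands. Mt1 is at chr8:94178839-94179138, Mt2 at chr8:94172368-94172667 and Slc30a1 at chr1:191906531-191906830, all on the plus strand.
Mt1: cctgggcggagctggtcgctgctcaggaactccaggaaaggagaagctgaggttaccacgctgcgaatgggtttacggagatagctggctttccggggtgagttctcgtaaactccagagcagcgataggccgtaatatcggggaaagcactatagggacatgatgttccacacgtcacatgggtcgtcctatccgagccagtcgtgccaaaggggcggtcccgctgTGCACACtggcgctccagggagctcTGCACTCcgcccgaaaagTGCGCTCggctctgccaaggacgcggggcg
Mt2: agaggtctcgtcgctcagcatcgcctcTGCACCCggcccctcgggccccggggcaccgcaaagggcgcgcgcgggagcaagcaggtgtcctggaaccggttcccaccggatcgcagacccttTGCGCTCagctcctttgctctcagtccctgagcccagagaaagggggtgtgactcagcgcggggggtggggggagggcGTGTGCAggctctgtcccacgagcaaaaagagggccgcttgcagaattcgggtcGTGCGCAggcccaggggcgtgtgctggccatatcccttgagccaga
Slc30a1: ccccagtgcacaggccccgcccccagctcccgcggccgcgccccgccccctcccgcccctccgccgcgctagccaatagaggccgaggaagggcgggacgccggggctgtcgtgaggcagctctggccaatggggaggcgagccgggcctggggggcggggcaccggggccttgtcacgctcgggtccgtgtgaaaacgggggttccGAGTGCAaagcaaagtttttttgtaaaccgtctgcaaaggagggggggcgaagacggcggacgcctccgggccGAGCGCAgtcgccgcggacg

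The Mt1 window held 3 matches, at bases −23 to −17, 3 to 9 and 21 to 27 from the start, all on the strand of the gene. The Mt2 window held 4, at −223 to −217 and −128 to −122 on the strand of the gene and at −50 to −44 and 5 to 11 on the other. Slc30a1 had 2, both on the opposite strand (−43 to −37 and 31 to 37). Of 32851 RefSeq promoters of this length, 25.7% held at least 1 match, 7.11% held 2 or more, 1.97% held 3 or more and 0.517% held 4 or more. Slc30a10 had 3 matches at 2 sites, since 2 of them overlap on opposite strands. Slc39a5 had 1 match at one of its 2 RefSeq starts and 0 at the other, and Mtf1 had 0. Slc39a4 and Slc39a14 were not analysed here for promoters. GENCODE lists Mt1 transcripts that start at −7, 122 and 152 bases from the RefSeq start, where a minus sign means upstream. Its Mt2 transcripts start 46 and 242 bases downstream of the RefSeq start. The bases just before the starts at −7 and 46 lie in the window, and those just before the other 3 starts lie outside it. The map of matches shows how they are spread over the windows.

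**Figure D1:**
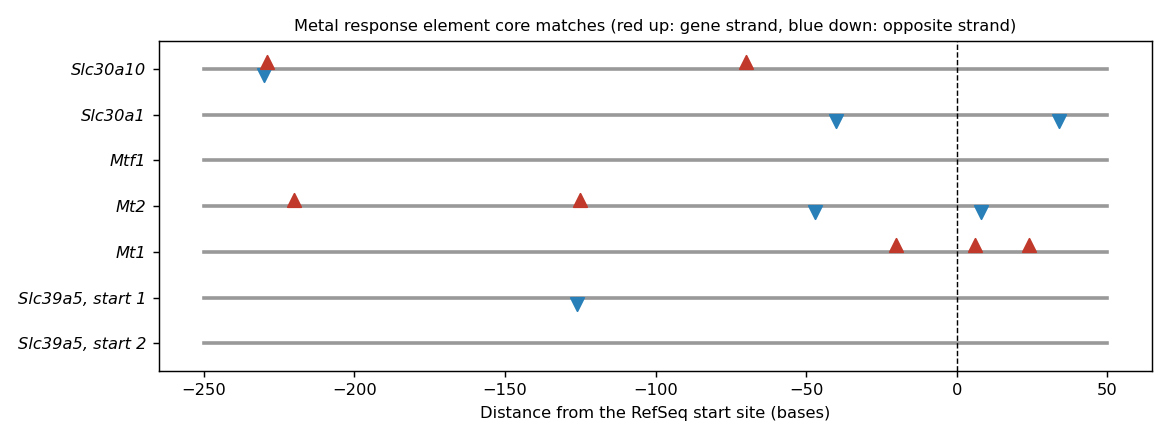
Matches to the metal response element core in 7 RefSeq promoter windows of 6 genes, by distance from the start site in bases; triangles pointing up are on the strand of the gene and those pointing down on the opposite strand. Mt2 holds 4 matches and Mt1 holds 3, while Mtf1 and the second start of Slc39a5 hold 0.

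Mt1 and Mt2, the zinc-binding buffers, were highest in Ctrl at day 1 and lower in the other 3 groups. Mt1 was at 236, 245 and 214 TPM in Ctrl day 1 and at 100.4, 98.1 and 94.3 TPM in Fzd5KO day 1. At day 3 it was at 84.7, 86.8 and 79.1 TPM in Ctrl and at 59.3, 62.5 and 57.6 TPM in Fzd5KO. No 2 of the 4 groups overlapped: the order from lowest to highest was Fzd5KO day 3, Ctrl day 3, Fzd5KO day 1, Ctrl day 1. The knockout held 42.2% of the control mean at day 1 and 71.6% at day 3, log2 differences of −1.24 ± 0.055 and −0.48 ± 0.055. From day 1 to day 3 Mt1 dropped by 1.46 ± 0.055 on the log2 scale in Ctrl and by 0.70 ± 0.055 in Fzd5KO. In bulk RNA, fewer cells of a type and less RNA per cell cannot be told apart, and this holds for every gene below.

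Mt2 had a steeper profile. It was at 76.9, 75.8 and 72.8 TPM in Ctrl day 1 and at 15.6, 17.8 and 19.8 TPM in Fzd5KO day 1. At day 3 it was at 12.4, 15.7 and 13.2 TPM in Ctrl and at 9.80, 14.6 and 11.9 TPM in Fzd5KO. Ctrl day 1 stood far above the rest, the 2 day 3 groups overlapped, and 1 Ctrl day 3 library also reached into the range of Fzd5KO day 1. The knockout held 23.6% of the control mean at day 1 (log2 difference −2.03 ± 0.13). At day 3 it held 87.9% (−0.18 ± 0.13, not called). Without Fzd5KO day 3 replicate 2, the highest of its group, that difference was −0.32 and called. In Ctrl, Mt2 dropped by 2.37 ± 0.13 from day 1 to day 3, to 18.3% of its day 1 level, and in Fzd5KO by 0.53 ± 0.13.

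The 2 metallothioneins did not keep one ratio. Mt1 TPM divided by Mt2 TPM was 3.08 ± 0.142 in Ctrl day 1, 5.57 ± 0.831 in Fzd5KO day 1, 6.12 ± 0.659 in Ctrl day 3 and 5.06 ± 0.908 in Fzd5KO day 3 (mean ± SD, n = 3). The ratio in the Ctrl day 1 libraries was 3.06, 3.23 and 2.95, below each of the other 9 libraries (4.28 to 6.83), whose groups overlapped. The summed level of both genes was 307 ± 17.4 TPM in Ctrl day 1, 115 ± 1.11 in Fzd5KO day 1, 97.3 ± 5.08 in Ctrl day 3 and 71.9 ± 4.50 in Fzd5KO day 3. The antisense gene Gm45774, which overlaps Mt2 on the other strand, had a mean of at most 0.05 TPM in any group. Of the 31-base words of Mt1 transcripts 0 occur in another gene's transcripts, and of 573 in Mt2 transcripts 3 occur in 1 other gene. Mt3 and Mt4, the remaining metallothionein genes, had group means of at most 0.48 and 0.23 TPM and were not tested.

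**Figure D2:**
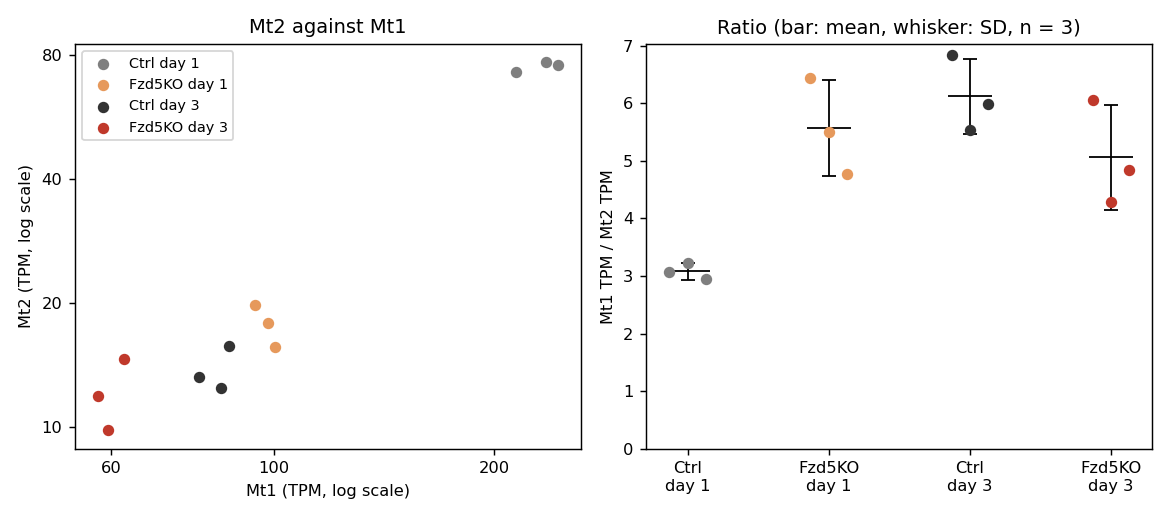
Left, Mt2 against Mt1 in each of the 12 libraries (TPM, log scales); right, the ratio of Mt1 to Mt2 TPM per library, with bars for the mean and whiskers for the SD of 3 libraries. The 3 Ctrl day 1 libraries lie apart, with ratios of 2.95 to 3.23 against 4.28 to 6.83 in the other libraries.

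Mtf1, the zinc-sensing factor, did not share the profile of the metallothioneins. It was at 16.8, 13.9 and 13.95 TPM in Ctrl day 1 and at 13.3, 13.6 and 15.3 TPM in Fzd5KO day 1. Its day 3 values were 14.02, 14.95 and 12.6 TPM in Ctrl and 23.3, 22.2 and 22.4 TPM in Fzd5KO. The first 3 groups overlapped and Fzd5KO day 3 lay above all of them. The knockout differed from Ctrl by 0.67 ± 0.084 at day 3 and by −0.077 ± 0.084 at day 1, a value within its error whose sign turned with scaling (0.071 with quantile normalization). The gene 1110065P20Rik, which overlaps Mtf1 on the other strand, had group means of 3.60 to 5.08 TPM, and the small n-R5s192 on the same strand had 0.55 to 2.79 TPM. The sources used here do not give whether counting used strand, so reads from overlapping genes cannot be told apart with certainty.

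Both exporters were highest in Fzd5KO at day 3. Slc30a1, which moves zinc out of the cell across the plasma membrane, was at 8.67, 9.52 and 7.40 TPM in Ctrl day 1 and at 9.79, 8.03 and 7.94 TPM in Fzd5KO day 1. The day 3 libraries stood at 7.50, 10.9 and 7.08 TPM in Ctrl and at 15.4, 13.7 and 15.2 TPM in Fzd5KO. Its lowest Fzd5KO day 3 library lay above the highest of the other 9 libraries, which overlapped among the groups. The day 3 mean was 1.74 times that of Ctrl (0.75 ± 0.14), and the day 1 difference was 0.0092 ± 0.14.

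Slc30a10, a transporter known for exporting manganese, was at 6.25, 6.77 and 6.09 TPM in Ctrl day 1 and at 7.44, 7.49 and 7.27 TPM in Fzd5KO day 1. The day 3 libraries stood at 5.88, 6.26 and 6.02 TPM in Ctrl and at 13.4, 12.2 and 13.05 TPM in Fzd5KO. The 2 control groups overlapped, Fzd5KO day 1 lay just above them and Fzd5KO day 3 well above. Its day 3 mean was 2.12 times that of Ctrl (0.97 ± 0.060), the highest ratio among the 8 genes, and its day 1 difference was 0.19 ± 0.060. The day 1 call was lost when any 1 of 7 libraries was left out: Ctrl day 1 replicate 1 or 3, Ctrl day 3 replicate 2, each Fzd5KO day 1 replicate, or Fzd5KO day 3 replicate 3 (0.16 to 0.20). Overlapping genes on the other strand stood at 0.86 to 1.77 TPM for Slc30a1 (1700034H15Rik) and at 0.603 to 1.92 TPM for Slc30a10 (Gm2061), highest in Fzd5KO day 3 in both cases.

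The importer Slc39a4, the brush border transporter for dietary zinc whose human counterpart is mutated in acrodermatitis enteropathica, had the highest group mean of the 6 genes other than the metallothioneins in each group. It was at 162, 166 and 148 TPM in Ctrl day 1 and at 171, 191 and 169 TPM in Fzd5KO day 1. At day 3 it was at 156, 162 and 153 TPM in Ctrl and at 249.6, 281 and 276 TPM in Fzd5KO. The control groups overlapped, Fzd5KO day 1 lay above both and Fzd5KO day 3 above all. The knockout differed by 0.77 ± 0.062 at day 3 (1.71 times the Ctrl mean) and by 0.16 ± 0.062 at day 1, not called. With quantile, median-of-ratios or rescaled values, the day 1 difference was 0.24, 0.32 and 0.26 and called.

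Slc39a5, an importer of the basolateral face of enterocytes, differed least between genotypes at day 3 among the importers. It was at 139.6, 141 and 136 TPM in Ctrl day 1 and at 116, 117 and 117 TPM in Fzd5KO day 1. The day 3 libraries stood at 153, 156 and 147 TPM in Ctrl and at 162, 161 and 172 TPM in Fzd5KO. The knockout lay below the control at day 1 and above it at day 3, with no overlap between any 2 of the 4 groups. The differences were −0.25 ± 0.034 and 0.12 ± 0.034. The second of these rests on the scale: it was −0.12 with quantile normalization, 0.26 with median-of-ratios scaling and 0.023 on rescaled values. It also lost its call without Fzd5KO day 3 replicate 3 (0.086). The day 1 difference was −0.086 and not called with median-of-ratios scaling. Ankrd52, on the other strand of this locus, had group means of 11.05 to 16.7 TPM.

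Slc39a14, which imports zinc, iron and manganese, was at 89.9, 95.1 and 82.9 TPM in Ctrl day 1 and at 82.5, 80.4 and 82.6 TPM in Fzd5KO day 1. At day 3 it was at 99.7, 93.8 and 79.7 TPM in Ctrl and at 136, 144 and 132 TPM in Fzd5KO. The control groups overlapped, Fzd5KO day 1 lay just under Ctrl day 1 and within the range of Ctrl day 3, and Fzd5KO day 3 lay above all. The differences were 0.59 ± 0.075 at day 3 and −0.12 ± 0.075 at day 1, the latter not called and 0.040 with median-of-ratios scaling. The plot of TPM by library shows the 2 kinds of profile side by side.

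**Figure D3:**
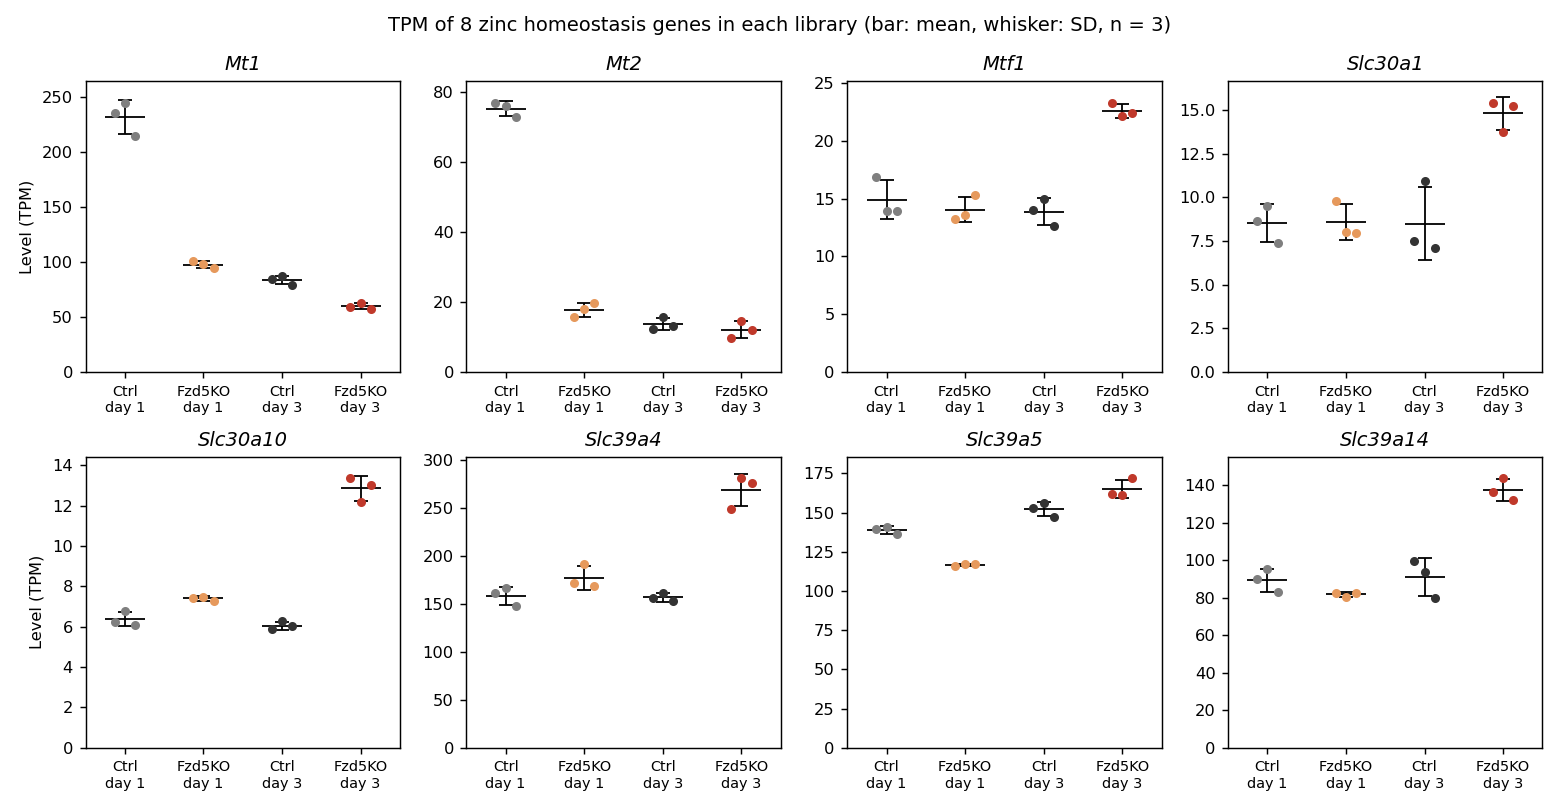
TPM of the 8 genes in each library (points), with the mean (bar) and SD (whisker) of 3 libraries per group; each panel has its own axis from 0. Mt1 and Mt2 are highest in Ctrl day 1, and the other 6 genes are highest in Fzd5KO day 3.

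Counted over the 8 genes, the comparisons were as follows, and nothing is read from counts over genes chosen this way. At day 1, 1 of 8 was called higher in the knockout (2.13% of all tested genes were) and 3 of 8 lower (22.8%). At day 3, 6 of 8 were called higher (24.3%) and 1 lower (38.5%). The median over the 8 genes was −0.10 at day 1 and 0.63 at day 3, against −0.14 over all tested genes on each day. The groups did not overlap for 6 genes at day 1 and 7 at day 3. Of all tested genes, 4.52% lay higher and 38.9% lower without overlap at day 1, and 25.7% and 40.8% at day 3.

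The difference between the day 3 and day 1 genotype effects (interaction) was above 0 for all 8 genes, and all 8 were called (25.3% of all genes were called higher and 19.1% lower). It was 0.76 ± 0.077 for Mt1 and 1.84 ± 0.18 for Mt2, both of which were less reduced at day 3 than at day 1. It was 0.75 ± 0.12 for Mtf1, 0.75 ± 0.20 for Slc30a1, 0.78 ± 0.086 for Slc30a10, 0.61 ± 0.088 for Slc39a4 and 0.72 ± 0.11 for Slc39a14. The value for Slc39a5 was 0.36 ± 0.049, and with quantile normalization it was 0.044 and not called. The 2 genotype comparisons share no library.

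Over time the control and the knockout differed in which genes moved. In Ctrl, 1 of 8 genes was called higher at day 3 than at day 1 (25% of all genes) and 2 lower (11%), the latter being Mt1 and Mt2. The one called higher was Slc39a5 (0.13 ± 0.034), which was at 0.00081 with median-of-ratios scaling and 0.11 without Ctrl day 3 replicate 2, and not called in either. The remaining 5 lay between −0.095 and 0.025. In Fzd5KO, 6 of 8 were called higher at day 3 (34.4% of all genes) and 2 lower (10.5%), again Mt1 and Mt2. The 6 increases were 0.49 ± 0.034 for Slc39a5, 0.60 ± 0.062 for Slc39a4, 0.65 ± 0.084 for Mtf1, 0.72 ± 0.060 for Slc30a10, 0.72 ± 0.14 for Slc30a1 and 0.74 ± 0.075 for Slc39a14. The time comparisons use the same libraries as the genotype comparisons and add no separate evidence.

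**Figure D4:**
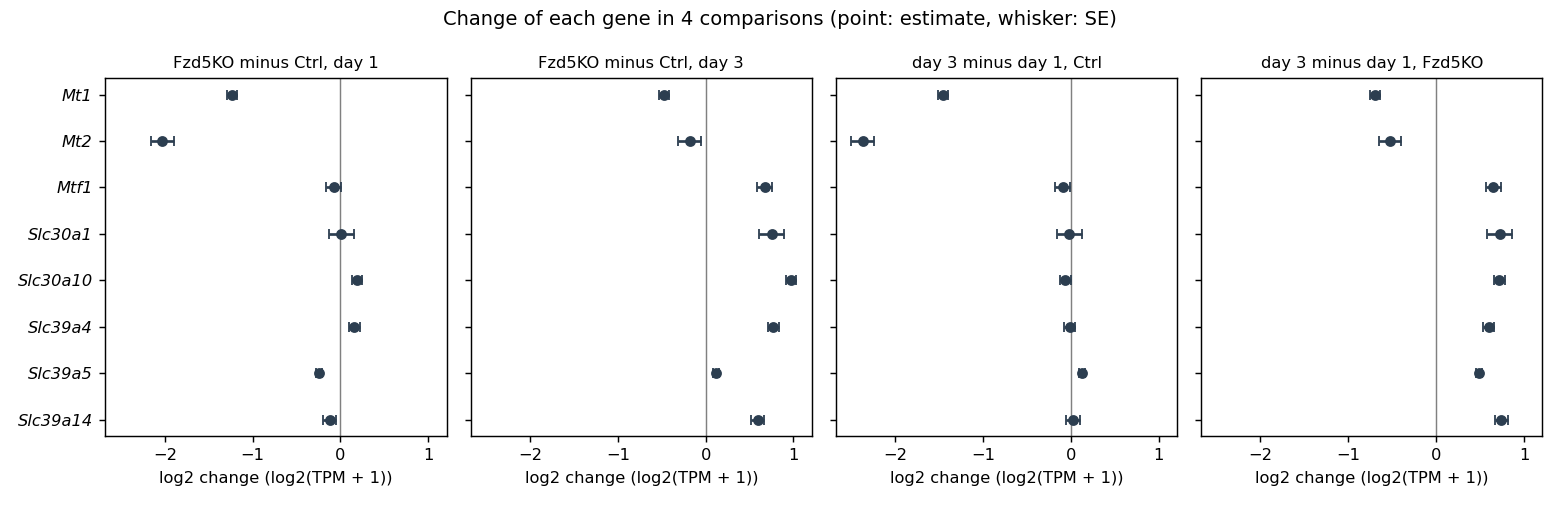
Differences of log2(TPM + 1) for the 8 genes in 4 comparisons, with the estimate as a point and the SE as a whisker. Mt1 and Mt2 lie below 0 in each panel, and the other genes lie near 0 in Ctrl over time and mostly between 0.5 and 1 at day 3.

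The rest of the 2 transporter families lay outside the members, and its genes were tested. These lists too were drawn up with earlier results of these data known, so their p-values are not independent of that choice. Of 8 other Slc30 genes 6 passed the filter. All 6 rose in the knockout at day 3 (median 0.45), under each of 3 other scalings too, and with any 1 library left out. Of all tested genes 24.3% rose and 38.5% fell at day 3. Slc30a5 rose from 56.1 ± 1.40 to 87.8 ± 1.64 TPM (0.64 ± 0.041, limma adjusted p = 1.31e-07); with Slc30a6 it loads zinc into the secretory pathway for alkaline phosphatases. Slc30a7, of the Golgi, rose from 18.5 ± 3.22 to 27.3 ± 1.37 TPM (0.55 ± 0.11, adjusted p = 0.00137). Slc30a2, which fills zinc-rich secretory vesicles, rose from 9.42 ± 0.718 to 13.9 ± 0.572 TPM (0.52 ± 0.062, adjusted p = 2.4e-05). From day 1 to day 3, Slc30a2 dropped in Ctrl (−0.85 ± 0.062, limma adjusted p = 2.21e-06). In Fzd5KO its change over time was not called (0.056 ± 0.062, limma adjusted p = 0.508). The smaller rises were 0.38 for Slc30a4, 0.37 for Slc30a6 and 0.29 for Slc30a9, a mitochondrial transporter.

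At day 1, 2 of these 6 exporters fell in the knockout (22.8% of all tested genes fell) and 0 rose (2.13%). They were Slc30a2 (from 17.8 ± 0.634 to 13.3 ± 0.532 TPM, −0.39 ± 0.062, limma adjusted p = 0.00148) and Slc30a5 (from 65.4 ± 2.42 to 55.7 ± 2.31 TPM, −0.23 ± 0.041, adjusted p = 0.00308). The call of Slc30a5 was lost under each of the 3 other scalings (−0.13 to −0.067, adjusted p = 0.0765 to 0.384). The day 3 minus day 1 difference of the genotype effect was above 0 for all 6 exporters, from 0.36 ± 0.080 for Slc30a9 (adjusted p = 0.00342) to 0.91 ± 0.088 for Slc30a2 (adjusted p = 7.57e-06). All 6 were called, against 25.3% of all tested genes called higher. On rescaled values, as with quantile normalization, the calls of Slc30a6 and Slc30a9 were lost (0.26 and 0.17 on rescaled values).

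Of 11 other Slc39 genes 10 passed the filter, and they split at day 3. Among them 3 rose and 3 fell there, against 24.3% and 38.5% of all tested genes. Slc39a9, found in the Golgi, rose from 38.1 ± 2.80 to 70.1 ± 1.75 TPM (0.87 ± 0.060, limma adjusted p = 2.2e-07). Slc39a1, an importer of the plasma membrane, rose from 44.1 ± 0.667 to 58.2 ± 3.80 TPM (0.39 ± 0.052, adjusted p = 4.94e-05). Slc39a7, which releases zinc from the endoplasmic reticulum, rose by 0.16 ± 0.044 (adjusted p = 0.00962). Quantile normalization and rescaled values ended that call (0.053 and 0.063). Slc39a2, Slc39a8 and Slc39a10 fell, from 1.43 ± 0.275 to 0.643 ± 0.057, from 5.10 ± 0.800 to 3.38 ± 0.305 and from 5.46 ± 0.689 to 3.46 ± 0.645 TPM. Their changes were −0.56 ± 0.12, −0.47 ± 0.12 and −0.54 ± 0.12, and all 3 genes are of low abundance here. With quantile normalization only Slc39a2 of these 3 stayed called; the values of the others were −0.21 and −0.27.

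At day 1 limma called 0 of these 10 importers, with 1 at an unadjusted p under 0.05, and with median-of-ratios scaling it called 2 higher. For 6 of the 10 the genotype effect differed between the days (25.3% of all tested genes were called higher and 19.1% lower). The day 3 minus day 1 difference was above 0 for Slc39a9 (0.84 ± 0.084, adjusted p = 9.46e-06), Slc39a1 (0.49 ± 0.073, adjusted p = 0.000244) and Slc39a7 (0.26 ± 0.063, adjusted p = 0.00591). It was below 0 for the 3 genes that fell at day 3, whose day 1 differences were 0.12 (Slc39a10), −0.021 (Slc39a2) and −0.0092 (Slc39a8). Its values were −0.66 ± 0.17 for Slc39a10 (adjusted p = 0.00931), −0.54 ± 0.17 for Slc39a2 (adjusted p = 0.0211) and −0.46 ± 0.17 for Slc39a8 (adjusted p = 0.0412). The last call was lost when any 1 of 8 libraries was left out (adjusted p = 0.0548 to 0.0951): replicates 1 and 3 of Ctrl day 1, 1 and 2 of Ctrl day 3, 2 and 3 of Fzd5KO day 1, and 1 and 3 of Fzd5KO day 3. That of Slc39a2 was lost without Fzd5KO day 1 replicate 3 (adjusted p = 0.0527). None of the 16 other tested transporters differed at day 1 by as much as Mt1 or Mt2, as the plot of day 3 against day 1 differences shows.

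**Figure D5:**
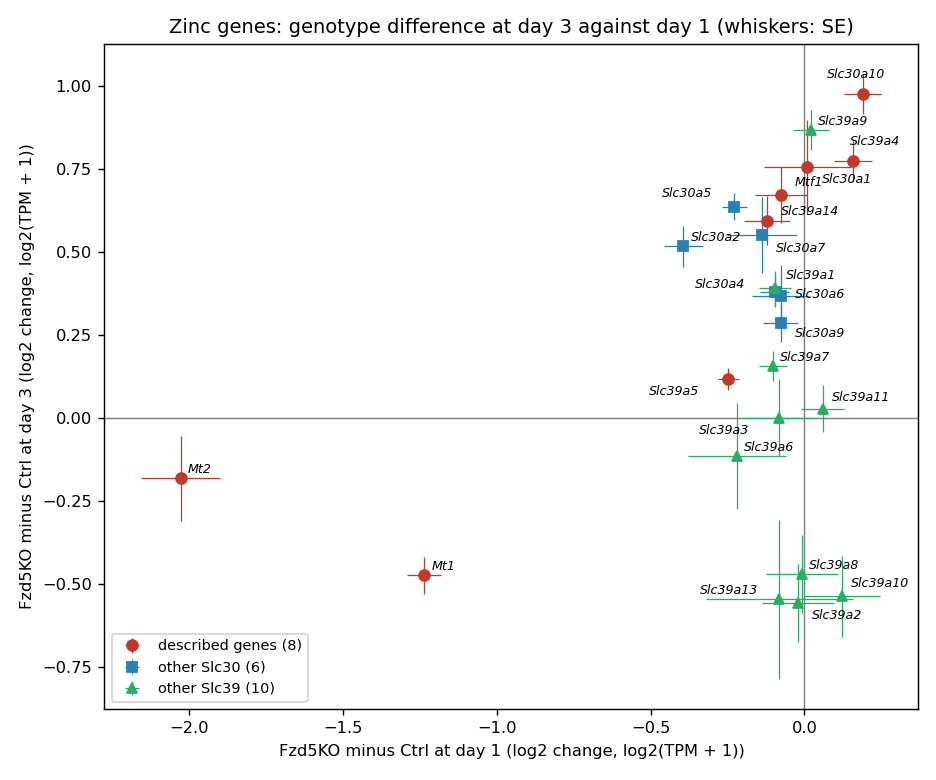
Difference between Fzd5KO and Ctrl at day 3 against that at day 1, on the log2(TPM + 1) scale with SE whiskers, for the 8 described genes, 6 other Slc30 genes and 10 other Slc39 genes. Mt2 (−2.03, −0.18) and Mt1 (−1.24, −0.48) lie apart on the left, and the other 6 Slc30 genes lie between 0.29 and 0.64 on the day 3 axis.

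Most zinc-dependent ectoenzymes of the brush border differed between genotypes in opposite directions on the 2 days. At day 1, 9 of 10 fell in the knockout (median −0.34, 22.8% of all tested genes fell), with Alpi not called. At day 3, 9 of 10 rose (median 0.93, 24.3% of all tested genes rose), with Mep1a not called. From day 1 to day 3, 9 of 10 fell in Ctrl (median −0.43) and all 10 rose in Fzd5KO (median 0.79). Anpep, an aminopeptidase, went from 2399 ± 79.7 to 1933 ± 28.5 TPM at day 1 (−0.31 ± 0.038, limma adjusted p = 0.000287). At day 3 its mean was 1453 ± 49.3 TPM in Ctrl and 3970.0 ± 138 TPM in the knockout (1.45 ± 0.038, adjusted p = 1.1e-10). The day 1 call of Anpep was lost with quantile normalization (−0.028, adjusted p = 0.779). With quantile normalization 7 of 10 fell at day 1, and 8 rose and 1 fell at day 3. With median-of-ratios scaling 7 fell and 1 rose at day 1, and all 10 rose at day 3.

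Markers of several cell types also differed between the genotypes, in directions that varied by cell type and day. Over all tested genes 2.13% rose and 22.8% fell at day 1, and 24.3% rose and 38.5% fell at day 3. The summed level of 10 enterocyte markers was 21756 to 22642 TPM in Ctrl day 1, 24684 to 25379 in Fzd5KO day 1, 18106 to 19164 in Ctrl day 3 and 38698 to 39814 in Fzd5KO day 3. Of these markers 9 rose at day 3 (median 1.16), and 4 rose and 4 fell at day 1. On rescaled values, which leave out 2 of the 10, 7 rose and 1 fell at day 3. All 7 stem cell markers fell on both days. Their sum was 122 to 128 TPM in Fzd5KO day 1 against 413 to 431 in Ctrl day 1, and 76.9 to 83.6 TPM in Fzd5KO day 3 against 612 to 653 in Ctrl day 3. All 7 goblet cell markers fell on both days too (median −0.78 and −0.71), from a sum of 9583 to 10459 TPM to one of 6045 to 6270 TPM at day 1 and from 9614 to 10205 TPM to 5907 to 6365 TPM at day 3. Of the 8 Paneth cell markers 5 fell at day 1 (2 rose and 1 fell with median-of-ratios scaling), and all 8 fell at day 3, from a sum of 13070 to 13922 TPM to one of 4285 to 4647 TPM. Of 8 enteroendocrine markers 4 fell at day 1 and 7 at day 3, where their sum was 164 to 169 TPM in the knockout against 516 to 531 in Ctrl. Of 5 tested tuft cell markers 2 fell at day 1 and 5 at day 3, and of 5 erythroid markers 3 and 5. The 9 T cell markers summed to 166 to 185 TPM in Ctrl day 1, 107 to 126 in Fzd5KO day 1, 40.8 to 44.3 in Ctrl day 3 and 153 to 169.9 in Fzd5KO day 3, with 5 fallen at day 1 and 9 risen at day 3. Of 7 tested B and plasma cell markers 2 fell at day 1 and 7 rose at day 3, where their sum was 102 to 130.1 TPM in the knockout against 25.7 to 33.8 in Ctrl. Of 6 tested myeloid markers 1 fell at day 1 and 5 rose at day 3. The part of any of these in the zinc gene differences was not tested. Of 10 pancreatic acinar markers, Prss1, Prss2, Pnlip and Amy2a5 were listed at 0 in all libraries. Cela1, the only 1 of the 10 that passed the filter, had group means of 4.96 to 7.24 TPM.

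Genes of other metals were counted in the same way. Beside these counts, 2.13% of all tested genes rose and 22.8% fell at day 1, with 24.3% and 38.5% at day 3. Of 9 copper genes, 0 rose and 3 fell at day 1, and 4 rose and 2 fell at day 3. With median-of-ratios scaling 3 rose and 1 fell at day 1. Atp7a, the copper exporter, and Slc31a1, the copper importer, fell at day 1 (−0.29 ± 0.054 and −0.26 ± 0.039, limma adjusted p = 0.0038 and 0.00111). The day 1 call of Atp7a was lost after quantile (adjusted p = 0.114) or median-of-ratios (adjusted p = 0.0917) scaling. Atp7a rose at day 3 from 10.6 ± 0.285 to 18.3 ± 0.695 TPM (0.73 ± 0.054, limma adjusted p = 4e-07), and Slc31a1 from 45.3 ± 1.89 to 58.8 ± 0.236 TPM (0.37 ± 0.039, adjusted p = 7.92e-06). Of 6 manganese and divalent metal transport genes, 0 rose and 2 fell at day 1, and 2 rose and 1 fell at day 3. With quantile normalization 2 rose and 3 fell at day 3, and without Ctrl day 3 replicate 3 or Fzd5KO day 3 replicate 2 the counts there were 1 and 2. Tmem165, a Golgi protein linked to manganese, fell at day 1 (−0.23 ± 0.058, adjusted p = 0.0159) and rose at day 3 (0.75 ± 0.058, adjusted p = 5.91e-07). Its day 1 call was lost under each of the 3 other scalings (−0.13 to −0.070) and without Ctrl day 1 replicate 2, Fzd5KO day 1 replicate 1 or Fzd5KO day 1 replicate 3 (adjusted p = 0.0506 to 0.0561). Atp2c2, a Golgi calcium and manganese pump, fell on both days (−0.79 ± 0.089 and −0.88 ± 0.089, adjusted p = 0.000175 and 5.36e-06).

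Glucocorticoids, interleukin 6 and oxidative stress are known inducers of metallothioneins. Shares over all tested genes were 2.13% risen and 22.8% fallen at day 1, and 24.3% and 38.5% at day 3. Of 11 glucocorticoid-responsive genes 10 were tested, of which 2 rose and 1 fell at day 1, and 3 rose and 4 fell at day 3. With median-of-ratios scaling 4 rose and 0 fell at day 1, and 4 rose and 1 fell at day 3. In the main fit the 4 that fell at day 3 were Fkbp5 (−0.68 ± 0.12), Ddit4 (−0.36 ± 0.11), Tsc22d3 (−0.15 ± 0.052) and Nr3c1 (−0.14 ± 0.037). The 3 that rose there were Errfi1, Cdkn1a (1.01 ± 0.055) and Sgk1 (0.33 ± 0.072). Errfi1, a feedback inhibitor of the EGF receptor, rose on both days (0.19 ± 0.054 and 1.50 ± 0.054, limma adjusted p = 0.0239 and 1.14e-09). Its day 1 call was lost without Ctrl day 1 replicate 1, Fzd5KO day 1 replicate 2 or Fzd5KO day 1 replicate 3 (adjusted p = 0.0619 to 0.0831). Of 14 interleukin 6 and STAT3 targets 8 were tested. At day 1, 1 rose and 2 fell, among the latter the kinase gene Pim1 (−0.47 ± 0.052, adjusted p = 0.000159). At day 3 all 8 rose, Pim1 by 1.33 ± 0.052 and the antimicrobial lectin Reg3g by 0.83 ± 0.046 (adjusted p = 2.23e-09 and 3.54e-08). On rescaled values 10 were tested, of which 7 rose and 1 fell at day 3. Of 12 NRF2 targets and metal stress genes 10 were tested, 1 rose at day 1 and 6 rose and 0 fell at day 3 (10 and 0 with median-of-ratios scaling). Srxn1, a sulfiredoxin, rose at day 3 from 43.0 ± 2.19 to 134 ± 1.66 TPM (1.62 ± 0.038, adjusted p = 6.18e-11).

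The genes whose profiles lay nearest to each member were found by the root-mean-square difference of log2(TPM + 1), centred on each gene's mean, over the 12 libraries and 8911 candidate genes. This is a description with no test. For Mt1 they were the detoxification enzymes Ugt2b5 (0.22), Gstm1 (0.25) and Cyp2c55 (0.27), and for Mt2 the same 3 genes, with Cyp2c55 nearest (0.46, 0.56 for Ugt2b5 and 0.61 for Gstm1). Cyp2c55 was at 46.1 ± 0.371 TPM in Ctrl day 1, 23.2 ± 0.901 in Fzd5KO day 1, 14.1 ± 0.289 in Ctrl day 3 and 16.4 ± 1.69 in Fzd5KO day 3. Among the other members, Slc30a10 lay nearest to Eno1, Parp14 and Pnrc1 (0.053 to 0.066), and Slc39a4 to Pkm and Btnl2 (0.071 and 0.073). Slc39a14 lay nearest to Sema4a, Sec16a and Sptlc2 (0.059 to 0.064), Mtf1 to Fdps, Cnep1r1 and Znfx1 (0.072 to 0.077), and Slc30a1 to Kdm6b, Igsf5 and Sidt2 (0.12 to 0.13). Slc39a5 was left out, since its group means spanned under 0.5 on the log2 scale (0.49). Among pairs of members, the nearest were Slc30a10 and Slc39a4 (0.11) and Mtf1 and Slc39a14 (0.11). Mt1 and Mt2 were 0.38 apart.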

How the data were processed

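RNA of intestinal epithelial cells was sequenced from stranded total RNA libraries, per the labels' protocols. According to the submitters' processing notes, bcl2fastq 2.18, STAR 2.7.3a, RSEM and mm10 were used, in an order they do not state. Annotation and strand setting of the counting: not given in the sources used here. A single table of TPM was deposited, which the authors made with 1 column per library and 0 columns of other samples. TPM keeps no depth, so no counting error could be given. Identifiers were matched to GENCODE mouse release M21 (55154 of 55421), and 23594 genes were at 0 in every library.

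Tested genes had to reach 1 TPM in 3 or more libraries. They were analysed as log2(TPM + 1) in limma 3.58.1 (R 4.3.3), with 4 group means, all 12 libraries (8 residual degrees of freedom), an intensity trend and Benjamini-Hochberg adjustment over all tested genes of a comparison. Fold changes on this scale understate those of low genes. The procedure was tested on simulated data. Alternatives were other pseudocounts (0.1, 5) and filters (none, 5 TPM), 3 scalings (quantile, median-of-ratios, and TPM rescaled after removing the 20 most abundant genes with mitochondrial, predicted and small RNA genes), a fit with no trend, array weights, a replicate block, a fit on only the groups compared, and each library left out in turn. Matplotlib 3.10.9 (Python 3.11.15) drew the figures.

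The members and gene lists were chosen with earlier results of these data known, so member values carry no p. The text names all 8 members, called genes of the other Slc30 and Slc39 families, up to 2 genes with the smallest p per remaining list, and the 3 most alike genes per member. Some genes that this rule names are not reported here. Other genes are named only where they overlap a member, mark a cell type or are listed within a count. Promoters came from RefSeq (GRCm38.p6), where 6 of 8 members matched.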

Additional observations from a re-analysis of the deposited data

Results flagged for a closer look

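Slc39a5 and Slc39a14 lay lower in every knockout library than in every control library at day 1 and higher in every one at day 3. The day 3 minus day 1 differences of the genotype effect were 0.36 and 0.72 on the log2 scale. Both were called in limma's fit over all genes, but the genes were chosen with these values known, so the calls describe these libraries and are not an independent test. The first was 0.044 with quantile normalization, where the day 3 genotype difference of Slc39a5 turned to −0.12 and was called lower. For Slc39a14 at day 1, the highest Fzd5KO library was at 82.62 TPM and the lowest Ctrl library at 82.88 TPM. Its day 1 genotype difference was not called (−0.12 ± 0.075) and was 0.040 with median-of-ratios scaling.

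For other zinc transporters, the genotype effect differed between the days by limma's interaction test. The day 3 minus day 1 differences were 0.91 for Slc30a2, 0.48 for Slc30a4, 0.86 for Slc30a5, 0.44 for Slc30a6, 0.69 for Slc30a7 and 0.36 for Slc30a9. They were 0.49 for Slc39a1, −0.54 for Slc39a2, 0.26 for Slc39a7, −0.46 for Slc39a8, 0.84 for Slc39a9 and −0.66 for Slc39a10. With quantile normalization the calls of Slc30a6 (0.36), Slc30a9 (0.16), Slc39a7 (0.037) and Slc39a8 (−0.38) were lost, and the call of Slc39a2 was lost without Fzd5KO day 1 replicate 3 (−0.48).

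The same test gave 1.02 for Atp7a, 0.63 for Slc31a1 and 0.98 for Tmem165. It gave 1.76 for Anpep, 1.30 for Errfi1, 0.91 for Cdkn1a, 1.79 for Pim1, 0.88 for Reg3g, 1.73 for Srxn1 and 0.96 for Gsta1.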

How the results depend on the processing

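Under 23 alternatives Mt1 stayed between −1.29 and −1.07 at day 1 and between −0.62 and −0.33 at day 3, and Mt2 between −2.10 and −1.82 and between −0.32 and −0.022. At day 3 Mtf1, Slc30a1, Slc30a10, Slc39a4 and Slc39a14 stayed between 0.40 and 1.17. The count called higher at day 3 (6) was 5 with quantile normalization, on rescaled values and without Fzd5KO day 3 replicate 3, and Slc39a5 was the gene lost. The count called higher at day 1 (1, Slc30a10) was 0 with a pseudocount of 5, no filter or only the libraries compared, 2 with each of the 3 other scalings, and 0 to 1 with 1 library left out. The count called lower at day 3 (1) was 2 with quantile normalization, where Slc39a5 turned to −0.12, and 1 to 2 with 1 library left out. The count called higher in Ctrl over time (1) was 0 with median-of-ratios scaling and 0 to 1 with 1 library left out. Genes called at day 1 numbered 3622, against 1771 with quantile normalization, 2188 with median-of-ratios scaling and 1936 on rescaled values; with 1 library left out they numbered 2231 (without Ctrl day 1 replicate 2) to 3675. Gsta1 in Fzd5KO over time was 0.17, and −0.058 on rescaled values. The cause was not tested. Same-numbered libraries of different groups did not deviate together (18 pairs, correlations of −0.069 to 0.093), and 1 of 12 libraries correlated best with its own number in every other group. With deviations taken from means of 3 libraries, this check cannot exclude a link between same-numbered libraries. With the replicate block, 3414 genes were called at day 1, and Slc30a10 lost and Slc39a4 gained a call there.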
